A study of Mus musculus with 12 samples.

Results

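The genes of the mTOR complexes and of the regulators that pass nutrient and growth factor signals to them were read out from the transcriptome of the hypothalamic arcuate nucleus (ARC). They were chosen by symbol from the deposited table, and all 36 listed symbols were found, among 38283 genes in all, with 1 row each. WT and Homo mice were compared, with 5 WT and 7 Homo libraries, 1 library per mouse. Both genotypes were C57BL/6 males, aged 8 weeks and fed ad libitum. Homo mice carried the R299Q mutation on both alleles of *Prkag2*, which encodes the γ2 subunit of the energy sensor AMPK. The knock-in is present in every cell that uses the gene and not in 1 cell type, and as it is a point mutation the level of *Prkag2* RNA does not check the genotype labels. The ARC was cut out of 14 µm sections by laser capture, so each library holds the neurons, glia and vessels of that region together, and fewer cells of a type cannot be told apart from less RNA per cell.

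mTOR is a protein kinase that works in 2 complexes. mTOR complex 1, which contains Raptor (*Rptor*), drives protein synthesis and restrains autophagy, and mTOR complex 2, which contains *Rictor*, phosphorylates Akt. Amino acids act through the Rag GTPases, which bring mTOR complex 1 to the lysosome, where the small GTPase *Rheb* switches it on, and insulin acts through Akt, which relieves Rheb of its inhibitor, the TSC complex. AMPK restrains the pathway by phosphorylating TSC2 and Raptor, and in the ARC the pathway is known for its part in the control of feeding. These steps are changes of protein state, and RNA levels do not measure them. Of the 36 genes, 24 were taken as positive regulators and 12 as negative regulators. The S6 kinases *Rps6kb1* and *Rps6kb2*, which are outputs of mTOR complex 1, were counted with the positive regulators.

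Values are FPKM, fragments scaled to transcript length and to the mapped total of each library. Read depth is unknown, as no counts were used. The FPKM of a library summed to between 13306604 and 21188486, of which the 10 highest genes took 95.9% to 98.1%, and the Spearman correlation across genes between libraries was 0.762 to 0.854. By how many genes they listed above 0, the libraries fall into 2 sets with a wide gap between them. WT 1, WT 2 and Homo 1 to Homo 5 listed 15742 to 16467 genes above 0, and WT 3 to WT 5, Homo 6 and Homo 7 listed 18141 to 18635. The sets are not a label of the study, and as 5 of 7 Homo libraries but 2 of 5 WT libraries are in the set with fewer genes, the sets and the genotypes are partly confounded. The sample titles of Homo 6 and Homo 7 are worded otherwise than those of Homo 1 to Homo 5, which is the split of the sets within Homo. WT titles are all worded alike, and what the wording marks is not given. All 11 markers of ARC neurons examined, among them *Agrp* and *Pomc*, were present. Their summed FPKM was 2044 to 6654 in WT and 4777 to 6650 in Homo.

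All 36 genes were expressed in the ARC, each averaging at least 1 FPKM across libraries, and 28 of them at least 5. In 35 of the 36, every library listed a value above 0. The exception was *Rps6kb2*, which encodes the S6 kinase S6K2 and was listed at 0 in Homo 2 and Homo 4. FPKM is scaled by length, but the RNA was amplified. Whether transcript length or amplification still affects the order of genes was not tested, so the order below is only that of the listed values. *Lamtor2*, a subunit of the Ragulator scaffold that anchors the Rag GTPases to the lysosome, was the highest, with a mean FPKM of 148. Next came the Sestrin *Sesn3* at 39.2, the mTOR complex 2 subunit *Mapkap1* at 37.9, *Rraga* at 37.3, *Lamtor1* at 37.1, *Pdpk1* at 33.2 and *Rheb* at 26.6. The lowest were *Mios* at 2.2, *Mlst8* at 2.06 and *Sesn2* at 1.73. From *Sesn3* to *Pdpk1* the ranges over libraries overlapped, and so did those of the 3 lowest genes. *Mtor* itself had a mean FPKM of 13.5. Among the Sestrins, *Sesn3* lay above the other two in each of the 12 libraries, with 28.1 to 54.2 FPKM against 7.45 to 17.5 for *Sesn1* and 0.698 to 2.74 for *Sesn2*.

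**Figure D1:**
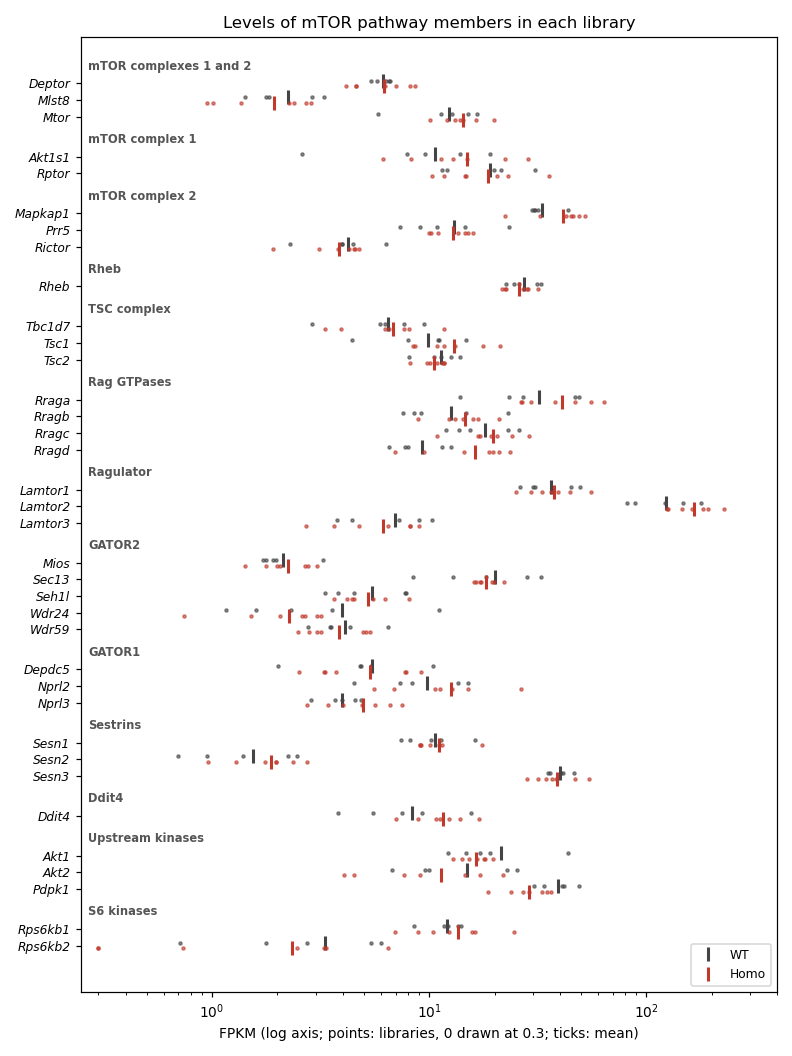
FPKM of the 36 genes (log axis) in each of the 5 WT and 7 Homo libraries, ordered by role; points are libraries, vertical ticks are genotype means, and a value of 0 is drawn at 0.3. *Lamtor2* stands highest at a mean of 148, *Sesn2* lowest at 1.73, and WT and Homo points overlap for every gene.

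The first question was whether any of these genes differed between Homo and WT. None passed. In limma over the 14017 genes that averaged at least 1 FPKM, 0 of the 36 had an adjusted p under 0.05 (Benjamini-Hochberg), against 1 of all genes tested, or 0.00713%. The smallest adjusted p among the 36 was 0.899. At an unadjusted p under 0.05, 2 of 36 passed, *Rragd* and *Pdpk1*, which is 5.56% against 5.55% of all genes tested. In 0 of 36 genes did the Homo values lie clear of the WT values, against 0.221% of all genes. Higher in Homo by the fitted fold change were 20 of 36, or 55.6%, against 49.3% of all genes.

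The data limit how large a difference could have been missed. For 27 of the 36 genes the 95% interval of the fold change lay within 1 log2 unit of 0 in both directions, that is, within a doubling or halving on the scale of FPKM + 1, and for all genes tested the share was 58.7%. The fitted fold changes themselves ran from -0.54 to 0.69. Within 0.5 log2 units of 0 lay 32 of 36, against 11174 of the 14017 genes tested. The 9 genes with wider intervals were *Akt1s1*, *Tsc1*, *Rraga*, *Rragd*, *Wdr24*, *Nprl2*, *Rps6kb2*, *Akt2* and *Ddit4*.

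**Figure D2:**
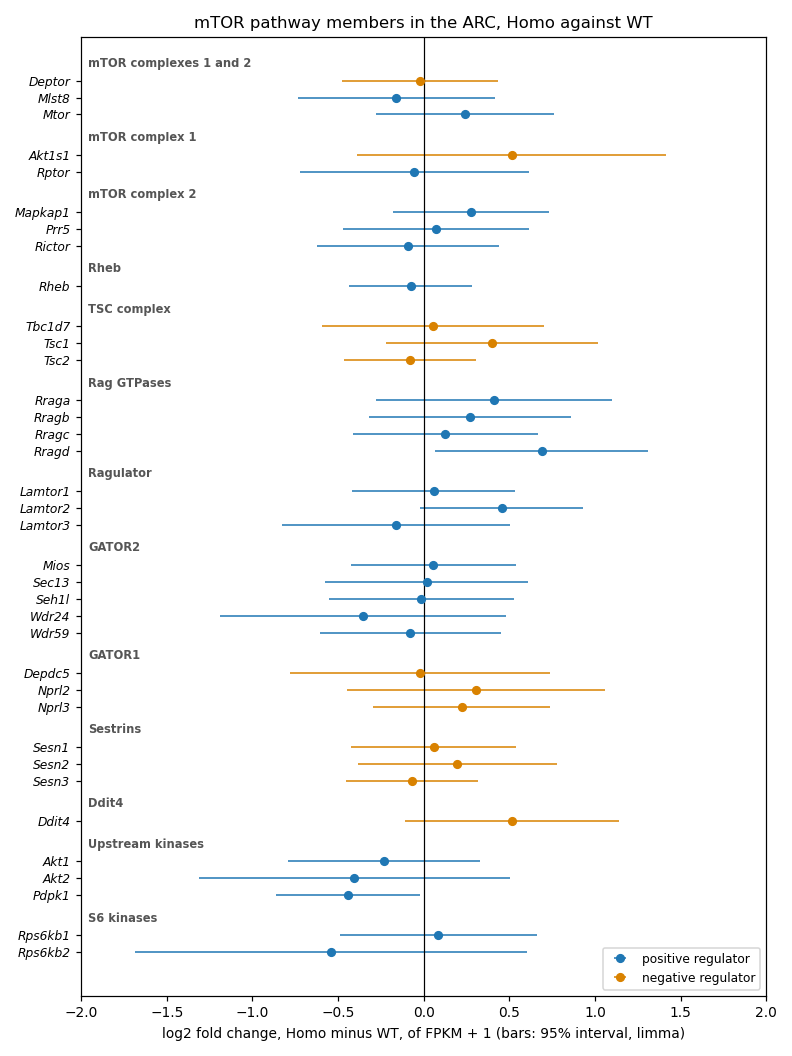
Log2 fold change (Homo minus WT, of FPKM + 1) of the 36 genes by role, with 95% intervals from limma; blue marks positive and orange negative regulators. The interval excludes 0 for *Rragd* (0.69) and *Pdpk1* (-0.44) before adjustment, and for no gene was the adjusted p under 0.05.

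The core subunits of the complexes showed no difference that passed the test. *Mtor*, the kinase, had FPKM of 5.84, 15.1, 11.4, 12.8 and 16.6 in WT 1 to WT 5, and a lowest, median and highest value of 10.1, 13.9 and 19.9 in Homo. WT 1 was below all other libraries, and the rest of the WT values lay inside the Homo range. The log2 fold change was 0.24 (95% interval -0.28 to 0.76). *Rptor*, the scaffold that recruits substrates to mTOR complex 1, had FPKM of 12.1, 21.3, 19.8, 11.5 and 30.9 in WT 1 to WT 5 and from 10.3 to 35.6 in Homo, with a median of 14.8. The Homo range held all WT values, and the log2 fold change was -0.05 (95% interval -0.72 to 0.62). *Rictor*, the defining subunit of mTOR complex 2, had FPKM of 4.45, 2.29, 3.96, 3.97 and 6.36 in WT 1 to WT 5, and 1.91 to 4.76 in Homo with a median of 4.26. Its log2 fold change was -0.09 (95% interval -0.62 to 0.44).

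*Mlst8*, the subunit that both complexes share, was at 2.24 ± 0.794 (SD, n = 5) FPKM in WT and 1.93 ± 0.809 (SD, n = 7) in Homo, and 16.4% of its stretches of 50 bases lie in *Bricd5* on the opposite strand. *Mapkap1*, which encodes the mTOR complex 2 subunit SIN1, was at 33.2 ± 5.79 FPKM in WT and 41.3 ± 10.4 in Homo, with 6 of 7 Homo libraries above the WT median. *Prr5*, or Protor-1, another mTOR complex 2 subunit, was at 13.0 ± 6.38 and 12.9 ± 2.43. Both of the subunits that inhibit the kinase were also within the spread. *Deptor*, the inhibitor in both complexes, was at 6.12 ± 0.530 FPKM in WT and 6.19 ± 1.81 in Homo, and *Akt1s1*, or PRAS40, the inhibitor of mTOR complex 1 that Akt phosphorylates, was at 10.6 ± 6.19 and 14.9 ± 7.97.

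*Rheb*, the direct activator of mTOR complex 1, had the smallest standard error of fold change of the 36 genes, 0.17. Its FPKM was 22.7, 31.4, 25.8, 24.7 and 32.7 in WT 1 to WT 5, and 21.6 to 31.9 in Homo with a median of 26.9. The ranges were nearly the same, and the log2 fold change of -0.08 had a 95% interval of -0.43 to 0.28. Its inhibitor, the TSC complex, consists of *Tsc1*, *Tsc2* and *Tbc1d7*. *Tsc2*, the subunit that turns Rheb off and a substrate of AMPK and Akt, had FPKM of 8.09, 12.6, 10.6, 11.3 and 13.9 in WT 1 to WT 5 and 8.18 to 11.8 in Homo, with a median of 10.8. The log2 fold change was -0.08 (95% interval -0.46 to 0.30). *Tsc1*, which stabilises TSC2, had FPKM of 4.41, 10.9, 7.95, 11.1 and 14.8 in WT 1 to WT 5, and 8.45 to 21.2 in Homo with a median of 11.6. Homo 1 and Homo 2 stood above all WT libraries and WT 1 below all others, while the remaining values were mixed, with a log2 fold change of 0.40 (95% interval -0.22 to 1.02). *Tbc1d7*, the third subunit, was at 6.45 ± 2.42 FPKM in WT and 6.79 ± 2.79 in Homo.

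The Rag GTPases, which bind mTOR complex 1 as pairs of RagA or RagB with RagC or RagD, all had a higher fitted value in Homo. This was 4 of 4, against 49.3% of all genes, with a median log2 fold change of 0.34. With library set as a term in the model the median was 0.20, and *Rraga* had 0.13 in place of 0.41. None of the 4 genes had an adjusted p under 0.05, and the direction within the sets differed for *Rraga* as given below. *Rragd* (chromosome 4, 32983037 to 33022180, plus strand, GRCm38) had the largest fold change of the 36 genes and was chosen for closer description by its unadjusted p. In WT 1 to WT 5 its FPKM was 6.56, 7.76, 12.6, 11.4 and 8.03. In Homo 1 to Homo 7 it was 23.5, 19.7, 6.98, 21, 18.9, 14.5 and 9.46. Homo 1, 2, 4, 5 and 6 were above all WT libraries, Homo 7 lay within the WT range and Homo 3 lay near its bottom, so the genotypes overlapped. The means were 9.27 ± 2.58 (SD, n = 5) and 16.3 ± 6.17 (SD, n = 7), for a log2 fold change of 0.69 ± 0.29 (SE; 95% interval 0.07 to 1.31). The unadjusted p of limma was 0.0326, the adjusted p 0.899, and the exact two-sided permutation test over the 792 ways to assign the genotypes gave p = 0.0518. With 1 library left out at a time, the unadjusted p was under 0.05 in 5 of 12 fits.

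*Rraga* was at 32.0 ± 15.4 FPKM in WT and 41.0 ± 14.9 in Homo, *Rragb* at 12.6 ± 6.51 and 14.6 ± 3.82, and *Rragc* at 18.0 ± 6.14 and 19.6 ± 5.72. *Rragb* and *Rragc* each had 6 of 7 Homo libraries above the WT median. RagA and RagB are close paralogs, but in transcripts of *Rraga* no stretch of 50 bases occurred in another gene of the annotation, and in *Rragb* 0.222% did, so stretches of this length told both apart.

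The starts of the 4 Rag genes are shown so that *Rragd*, which had the largest fold change, can be read beside its family. Each line gives the 250 bases before the RefSeq start in GRCm38.p6, plus strand, 5′ to 3′, with CACGTG in capitals. CACGTG is an E-box, its own reverse complement, which bHLH factors such as TFEB, USF1 and MYC are known to bind.
Rraga, chr4:86575423-86575672: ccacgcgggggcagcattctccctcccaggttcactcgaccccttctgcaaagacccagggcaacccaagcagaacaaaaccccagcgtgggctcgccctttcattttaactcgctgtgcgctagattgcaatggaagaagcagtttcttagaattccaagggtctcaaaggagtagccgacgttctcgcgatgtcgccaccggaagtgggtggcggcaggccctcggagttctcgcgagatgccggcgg
Rragb, chrX:153139708-153139957: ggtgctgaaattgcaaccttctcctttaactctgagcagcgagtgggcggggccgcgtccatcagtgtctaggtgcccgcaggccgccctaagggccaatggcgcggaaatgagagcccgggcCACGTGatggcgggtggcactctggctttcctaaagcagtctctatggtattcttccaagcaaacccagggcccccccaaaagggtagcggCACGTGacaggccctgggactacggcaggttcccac
Rragc, chr4:123917183-123917432: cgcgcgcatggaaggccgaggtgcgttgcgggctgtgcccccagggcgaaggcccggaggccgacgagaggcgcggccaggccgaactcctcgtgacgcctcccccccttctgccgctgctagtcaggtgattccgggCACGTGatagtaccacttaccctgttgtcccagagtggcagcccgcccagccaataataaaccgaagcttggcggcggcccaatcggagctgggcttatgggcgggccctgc
Rragd, chr4:32982748-32982997: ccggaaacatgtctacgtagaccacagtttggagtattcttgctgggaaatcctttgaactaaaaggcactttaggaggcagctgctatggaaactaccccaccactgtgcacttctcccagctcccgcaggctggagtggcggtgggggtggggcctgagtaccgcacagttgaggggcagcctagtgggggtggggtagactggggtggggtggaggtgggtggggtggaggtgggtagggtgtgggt

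The printed bases hold CACGTG at 2 places in *Rragb* and 1 in *Rragc*, and these letters do not occur in the printed bases of *Rraga* or *Rragd*. In the full RefSeq window of 300 bases, which runs past the start, 5 of the 31 members with an entry held the motif (*Lamtor1*, *Rheb*, *Rragb*, *Rragc* and *Tbc1d7*), or 16.1%, against 8.09% of 27025 genes. The latter are all genes with an entry, expressed in the ARC or not, whereas all members are expressed there, so the shares are not of like sets. *Deptor*, *Lamtor3*, *Rps6kb2*, *Seh1l* and *Wdr24* had no entry. *Rragd*, the member with the largest fold change, is not among those with these letters in this window. The fitted log2 fold changes of the 5 that have them ran from -0.08 for *Rheb* to 0.27 for *Rragb*. Variants of the motif and sites outside the window were not searched. Any part of such sites in the fold changes was not tested.

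Ragulator, the scaffold of the Rag GTPases, was measured by 3 genes of the list. *Lamtor2* had FPKM of 122, 178, 81.6, 147 and 88.7 in WT 1 to WT 5. In Homo its lowest, median and highest values were 124, 163 and 228, so that 7 of 7 Homo libraries were above the WT median while WT 2 and WT 4 lay within the Homo range. The means were 123 ± 40.3 and 166 ± 37.9, with a log2 fold change of 0.45 (95% interval -0.02 to 0.93, adjusted p = 0.899 from limma). *Lamtor1*, which anchors Ragulator in the lysosomal membrane, was at 36.2 ± 10.1 FPKM in WT and 37.7 ± 10.2 in Homo, and *Lamtor3* at 6.94 ± 2.82 and 6.12 ± 2.46. Of *Lamtor1*, 25.6% of 50-base stretches are shared with other genes, mostly with *Lrrc51* on the opposite strand. Whether the counting used strand is not given in the sources used here, and without it the reads of such pairs cannot be told apart.

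GATOR1 and GATOR2 work on the Rag GTPases from opposite sides. GATOR1 turns RagA and RagB off and GATOR2 counters GATOR1. In GATOR2, 2 of 5 genes were higher in Homo and the fold changes ran from -0.35 for *Wdr24* to 0.06 for *Mios*, with *Wdr59* at -0.08, *Seh1l* at -0.01 and *Sec13* at 0.02. SEH1L and SEC13 are also parts of the nuclear pore coat, so their RNA does not measure GATOR2 alone. WT 1 had 11.2 FPKM of *Wdr24*, whereas the other 11 libraries were between 0.740 and 3.58, and without WT 1 its log2 fold change was 0.05. In GATOR1, 2 of 3 were higher, *Nprl2* with 9.78 ± 4.42 FPKM in WT and 12.7 ± 6.93 in Homo and *Nprl3* with 3.99 ± 0.773 and 4.97 ± 1.72, while *Depdc5* was at 5.48 ± 3.03 and 5.36 ± 2.75. *Nprl3* shares 16.1% of its 50-base stretches with other genes, nearly all with *Mpg* on the opposite strand.

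The Sestrins, which inhibit GATOR2, and *Ddit4*, or REDD1, a stress-induced protein that acts through the TSC complex, are negative regulators. *Sesn2*, the leucine sensor and the lowest of the 36, had FPKM of 0.951, 0.698, 2.45, 2.23 and 1.39 in WT 1 to WT 5, and 0.963 to 2.74 in Homo with a median of 1.98. WT 1 and WT 2 were the lowest of all libraries, and the log2 fold change was 0.20 (95% interval -0.38 to 0.78). *Sesn1* was at 10.7 ± 3.49 and 11.0 ± 2.98 FPKM, and *Sesn3* at 39.9 ± 4.51 and 38.7 ± 9.03. *Ddit4* had FPKM of 9.25, 15.5, 3.81, 7.49 and 5.54 in WT 1 to WT 5, and 7.01, 11.3 and 17 as the lowest, median and highest of Homo. With 6 of 7 Homo libraries above the WT median, but WT 2 among the highest values, the log2 fold change of 0.52 had a 95% interval of -0.11 to 1.14 and an unadjusted p of 0.0985 in limma.

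The kinases upstream of the TSC complex all had a lower fitted value in Homo, with a median log2 fold change of -0.40. This was 3 of 3, against 7105 of the 14017 genes tested. With library set as a term in the model the median was -0.30. *Pdpk1* (chromosome 17, 24073680 to 24150924, minus strand) encodes PDK1, which phosphorylates the activation loop of Akt and of S6 kinase. Its FPKM was 40.9, 49.1, 33.9, 41.8 and 30.5 in WT 1 to WT 5, and 34.7, 27.0, 18.6, 33.0, 23.7, 29.0 and 36.2 in Homo 1 to Homo 7. All 7 Homo libraries were below the WT median, and 4 of them (Homo 2, 3, 5 and 6) below all WT libraries, so the genotypes overlapped through WT 3 and WT 5. The means were 39.2 ± 7.28 and 28.9 ± 6.34, for a log2 fold change of -0.44 ± 0.20 (SE; 95% interval -0.86 to -0.02). In limma the p was 0.0405 unadjusted and 0.899 adjusted, and the exact two-sided permutation test p = 0.0316, the smallest of the 36 genes and the only one under 0.05. This is 1 of 36, or 2.78%, against 5.35% of all genes tested. Here too the unadjusted p was under 0.05 in 5 of the 12 fits that left out 1 library.

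*Akt1* was at 21.3 ± 12.7 FPKM in WT, of which WT 2 had 43.6 and the other 4 between 12.1 and 19.0, and at 16.3 ± 2.41 in Homo. Without WT 2 its log2 fold change was 0.05 in place of -0.23, so the shared direction of the 3 kinases rested on that library. *Akt2*, the form best known from insulin action, was at 14.9 ± 8.51 and 11.3 ± 6.78. It shares 9.76% of its 50-base stretches with the pseudogene *Akt2-ps*. Of the S6 kinases, the main outputs of mTOR complex 1, *Rps6kb1* (S6K1) was at 12 ± 2.17 FPKM in WT and 13.6 ± 5.92 in Homo.

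*Rps6kb2* had the largest standard error of the list, 0.53, and is described in full for that reason, after its values were seen. It had FPKM of 5.41, 6.01, 1.78, 0.712 and 2.73 in WT 1 to WT 5. In Homo 1 to Homo 7 the values were 0.733, 0, 2.46, 0, 3.28, 6.47 and 3.35. The highest and the lowest values are thus both in Homo, and the log2 fold change of -0.54 had the widest interval of the 36, from -1.68 to 0.60. Of its 50-base stretches, 19.5% lie in *Ptprcap* on the opposite strand, a gene with a mean FPKM of 0.138.

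**Figure D3:**
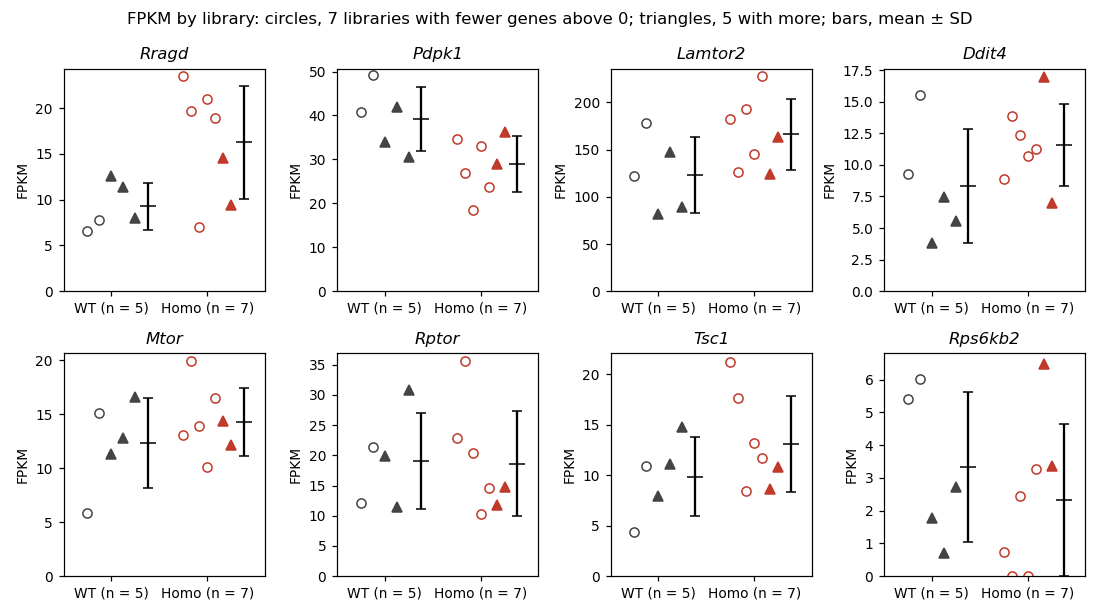
FPKM of 8 of the genes in each library (WT, n = 5, grey; Homo, n = 7, red), with circles for libraries with fewer genes above 0, triangles for those with more, and bars for mean ± SD. *Rragd* has 5 Homo libraries above all WT libraries and *Pdpk1* has 4 below them. In *Lamtor2* all 7 Homo libraries lie above the WT median, with WT 2 and WT 4 within the Homo range. The genotypes overlap in every panel.

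The second question was whether positive and negative regulators moved apart. This was described by counts and medians, with no test of one group against the other. Among the 24 positive regulators, 12 were higher and 12 lower in Homo, with a median log2 fold change of 0.0015, and 0 of 24 had an adjusted p under 0.05. Among the 12 negative regulators, 8 were higher and 4 lower, with a median of 0.13, and 0 of 12 passed. The median over all genes tested was -0.006.

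Within a library, the mean log2(FPKM + 1) of the positive regulators was always above that of the negative regulators, which reflects the levels of the genes on the lists. Its excess was 0.57 ± 0.16 (SD, n = 5) in WT, from 0.32 to 0.72, and 0.41 ± 0.24 (SD, n = 7) in Homo, from 0.04 to 0.77. The means of the positive regulators were alike, 3.69 ± 0.18 in WT and 3.69 ± 0.12 in Homo. Those of the negative regulators were 3.11 ± 0.23 and 3.29 ± 0.18. Homo 2 had the smallest excess, with 3.59 for positive and 3.54 for negative regulators, and Homo 7 the largest. Where fewer genes were above 0 the excess was 0.58 in WT and 0.30 in Homo, and in the other set 0.57 in WT and 0.67 in Homo, so the difference between genotypes was of opposite sign in the sets.

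**Figure D4:**
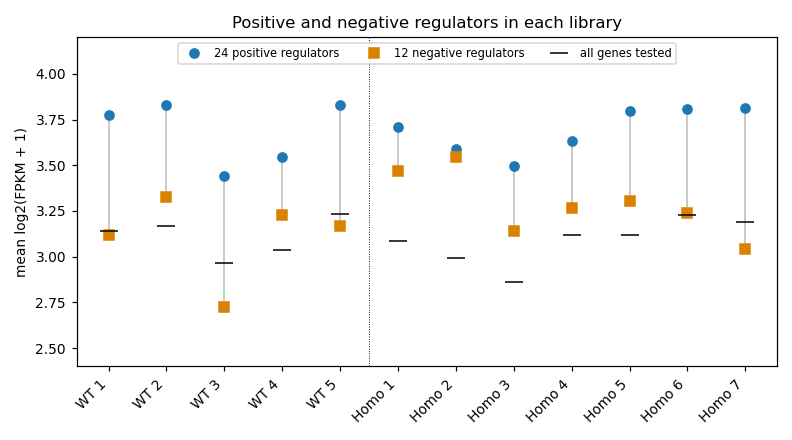
Mean log2(FPKM + 1) of the 24 positive and the 12 negative regulators in each of the 12 libraries, with dashes for the mean of all genes tested; the dotted line parts WT from Homo. Positive regulators lie above negative ones in each library, by 0.04 in Homo 2 to 0.77 in Homo 7.

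The comparison was then made by library set. Summed cell type markers were set beside the sets without a test, and the ranges of the sets overlapped in every list. Where fewer genes were above 0, blood genes summed to 5.03 to 27.0 FPKM, pituitary markers to 0 to 11.8 and ARC neuron markers to 4777 to 6654. In the set with more genes they summed to 21.4 to 181, 0.137 to 117, and 2044 to 5301. In the same order of sets, microglial markers summed to 22.3 to 46.9 and 25.3 to 45.6. Pan-neuronal markers summed to 660 to 1006 and 654 to 990. The part of the cell types in the differences between sets was not tested. In the model with genotype and set, 3 of the 36 genes had an unadjusted p under 0.05 for the set, or 8.33% against 8.42% of all genes, and 0 had an adjusted p under 0.05, against 0.178% of all genes. All 3 were lower in the set with more genes above 0. They were *Akt1s1*, with a mean FPKM of 17.5 in the libraries with fewer and 6.91 in those with more genes (log2 difference -1.21, adjusted p = 0.264 in limma), *Rraga*, with 46.7 and 24.1 (-0.88, adjusted p = 0.312), and *Prr5*, with 15.3 and 9.65 (-0.63, adjusted p = 0.414). For *Rraga* the fold change between genotypes was 0.41 over all libraries but -0.12 within the set with fewer genes and 0.43 within the other.

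Within the 7 libraries with fewer genes (2 WT, 5 Homo) 16 of 36 were higher in Homo, and within the other 5 (3 WT, 2 Homo) 25 of 36 were. The same shift was present in all genes, whose median log2 fold change was -0.08 in the former and 0.13 in the latter. Medians of the positive regulators were -0.10 and 0.18, and of the negative regulators -0.01 and 0.09. The sign was opposite in the sets for 25 of 36 genes, or 69.4%, against 55.3% of all genes tested. *Rragd* had a log2 fold change of 1.13 in the set with fewer genes and 0.15 in the other. *Pdpk1* had -0.72 and -0.11. Both kept their sign, and both were larger in the 7 libraries with fewer genes. When genotype was permuted within the sets, in all 210 ways, the exact two-sided p was 0.0619 for *Rragd* and 0.0476 for *Pdpk1*. The latter was the only one of the 36 under 0.05, or 2.78%, against 4.62% of all genes tested.

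The difference between the sets was itself tested as an interaction. An unadjusted p under 0.05 was found for 2 of 36 genes, *Rps6kb2* and *Akt1*, or 5.56% against 5.18% of all genes, and neither had an adjusted p under 0.05. *Rps6kb2* had a log2 fold change of -1.81 in the set with fewer genes and 1.13 in the other (adjusted p of the interaction 0.874, limma), and *Akt1* -0.81 and 0.31 (adjusted p 0.876). For *Rragd* and *Pdpk1* the adjusted p of the interaction was 0.881 and 0.886 in limma. *Ddit4* was at -0.08 and 0.90, and *Tsc1* at 0.88 and -0.16, with an adjusted p of 0.876 each.

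**Figure D5:**
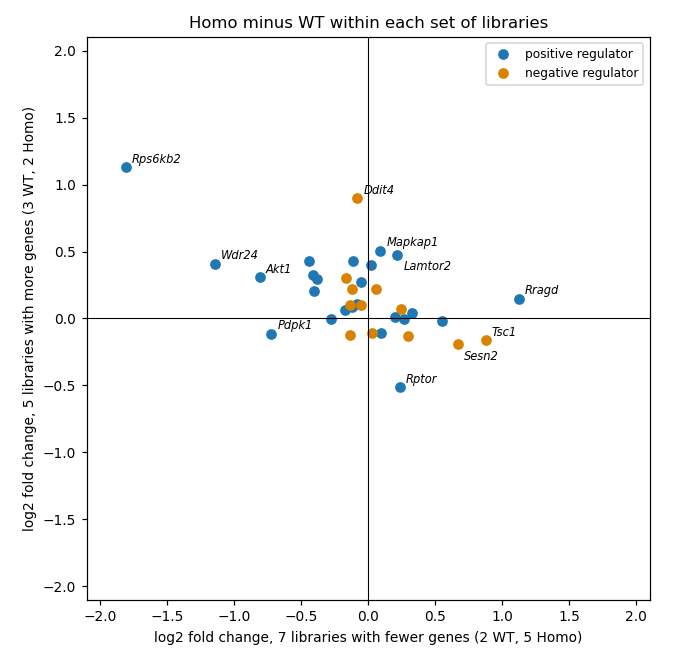
Log2 fold change (Homo minus WT) of each of the 36 genes in the 7 libraries with fewer genes above 0 (x axis) and in the 5 with more (y axis), blue for positive and orange for negative regulators. The sign differs for 25 of 36 genes, and *Rps6kb2* is farthest from the centre at -1.81 and 1.13.

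Further genes of the pathway were read out from a list of 46, matched to the table by symbol or gene ID. Of these, 18 were higher and 28 lower in Homo, with a median log2 fold change of -0.05, and 0 had an adjusted p under 0.05. At an unadjusted p under 0.05, 2 of 46 passed, or 4.35%, against 5.55% of all genes tested. They were *Grb10*, an adaptor that dampens insulin signalling and is stabilised by mTOR complex 1, at 95.4 ± 23.6 FPKM in WT and 68.0 ± 14.7 in Homo (log2 fold change -0.48, adjusted p = 0.899 in limma), and *Prkag1*, the γ1 subunit of AMPK, at 9.64 ± 0.938 and 13.3 ± 2.53 (0.41, adjusted p = 0.899). *Prkag2*, the mutated gene, was at 14.6 ± 5.43 and 14.8 ± 4.88. By role, 3 of 12 outputs of the pathway were higher in Homo, 4 of 10 genes between the insulin receptor and Akt, 3 of 9 of AMPK and its upstream kinase LKB1, 4 of 6 of the lysosomal platform, 1 of 5 of KICSTOR and the arginine sensors, and 3 of 4 of the assembly and accessory factors. The remaining Ragulator subunits were at 25.1 ± 13.9 and 32.3 ± 14.4 FPKM for *Lamtor4*, and at 9.79 ± 3.58 and 9.89 ± 3.66 for *Lamtor5*.

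Markers of the cell types that a laser cut can hold were set beside these values. In 9 lists no marker had an adjusted p under 0.05. The summed FPKM of 5 microglial markers was 22.3 to 32.8 in WT and 25.7 to 46.9 in Homo, and all 5 had a higher fitted value in Homo. The exact two-sided permutation test of this sum gave p = 0.00884, the only one of the 9 lists under 0.05, and 0.0795 after adjustment over the lists. All 6 oligodendrocyte markers also had a higher fitted value in Homo, with a median log2 fold change of 0.37 (exact permutation test of their sum, p = 0.448). Higher too were 8 of 11 ARC neuron markers (median 0.40), 4 of 5 of astrocytes (0.29), 4 of 6 pan-neuronal (0.09) and 3 of 5 of endothelium (0.15). Fewer were higher for ependyma and tanycytes, 1 of 4 tested (-0.17), pituitary, 0 of 2 (-1.14), and blood, 0 of 2 (-0.67). The part of these cells in the values of the 36 genes was not tested. The ranges of the genotypes overlapped in all 9 lists. Neuronal markers summed to 654 to 908 in WT and 660 to 1006 in Homo, those of astrocytes to 93.5 to 168 and 106 to 202, those of oligodendrocytes to 88.8 to 550 and 153 to 403, and those of endothelium to 12.5 to 31.5 and 13.2 to 36.1. Ependyma and tanycytes were at 25.8 to 47.2 and 18.8 to 50.6, and 2 haemoglobin genes at 10.8 to 181 and 5.03 to 102. The pituitary markers had 2 of 6 genes averaging at least 1 FPKM, and their sum reached 117 in WT and 56.4 in Homo, with libraries at 0 in both genotypes.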

How the data were processed

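RNA from laser-captured ARC was amplified (NuGEN), sequenced and deposited by the authors as 1 table of FPKM values for 38283 genes. The submitters' processing notes name TopHat2 2.0.8, Cufflinks 2.2.1 and GRCm38, with no roles. Any scaling beyond FPKM, and the handling of strand, are not given in the sources used here. All 12 sample columns were matched to samples by their labels.

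FPKM are not counts, so log2(FPKM + 1) of 14017 genes (a mean of 1 FPKM or more) was fitted with limma 3.58.1 in R 4.3.3 (variances moderated with a trend, robustly), on genotype alone, and p-values were adjusted over all genes tested (Benjamini-Hochberg). Fold changes are on this scale and understate those of low genes. Single values were also tested by exact permutation of the libraries, for which the smallest possible p is 0.00126 (0.00476 within library sets). The script was tested on simulated data.

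The members, gene lists and library sets were chosen with earlier results of these data known. All 36 members are named by role. Values of every library are given for those with an unadjusted p under 0.05. Values of each WT library, with the Homo range and median, are given for a further group. It holds the highest and lowest by mean, and *Mtor*, *Rptor*, *Rictor*, *Rheb*, *Tsc1*, *Tsc2* and *Ddit4*. *Rps6kb2* and other values of single libraries were added after they were seen. Marker lists were ARC neurons, neurons, astrocytes, oligodendrocytes, microglia, endothelium, ependyma and tanycytes, pituitary and blood. Gene positions are from GENCODE mouse release 21, and promoters from RefSeq. Alternatives were another pseudocount, other filters and scalings, library set as a term or split, a replicate block, array weights, the lysosomal members alone and leaving out each library. Same-numbered WT and Homo libraries are different mice.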

Additional observations from a re-analysis of the deposited data

Results flagged for a closer look

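In 72 groups (36 genes in each genotype), 5 had a highest value far from the rest, measured as the gap to the next library over the range of the group. Chance flags about 1 in 20 groups. In WT, *Mapkap1* was at 43.5 FPKM in WT 1 with the next library at 31.8, *Wdr24* was at 11.2 in WT 1 with the next at 3.58, *Akt1* was at 43.6 in WT 2 with the next at 19.0, and *Mios* was at 3.25 in WT 5 with the next at 1.96. In Homo, *Sesn1* was at 17.5 FPKM in Homo 4 with the next at 11.4. WT 1 and WT 2, which hold 3 of the 5, are the only WT libraries in the set with fewer genes above 0.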

How the results depend on the processing

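No member had an adjusted p under 0.05 under any alternative run, and the smallest adjusted p of a member was 0.652. Of 807 single-member values, 792 moved by less than 1 SD of the libraries and 15 by more, all 15 within a library set. The 792 do not measure stability. Leaving out 1 library cannot move the mean of 5 or 7 libraries by 1 SD, and other filters leave a fold change as it is. Below that limit, *Rps6kb2* went from a log2 fold change of -0.54 to -1.33 with a pseudocount of 0.1 and to 0.07 with array weights. An unadjusted p under 0.05 was found for 0 members with library set as a covariate and for 0 with array weights, against 2 in the values reported; *Rragd* then had an unadjusted limma p of 0.0511 and 0.0535, and *Pdpk1* of 0.0546 and 0.0532. Over all genes, 1 had an adjusted p under 0.05, against 6 within the libraries with fewer genes above 0, 19 within those with more, and 2 with the replicate block. Same-numbered libraries did not deviate together (correlations -0.0537 to 0.0288), so the replicate block pairs mice that share only a number; its unadjusted calls were *Rraga* and *Pdpk1*.

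With 1 library left out, genes called were 1 to 3 (3 without WT 2, 2 without Homo 4), members with an unadjusted p under 0.05 were 0 to 2 (0 without WT 1 and without Homo 5), and members higher in Homo were 15 (without WT 3) to 25 (without WT 2). *Rragd* then ran from 0.59 to 0.86 and *Pdpk1* from -0.53 to -0.34 on the log2 scale, each with an unadjusted p under 0.05 in 5 of 12 such fits. That of *Rragd* was above 0.05 without WT 1, 2 or 5 or Homo 1, 2, 4 or 5, and that of *Pdpk1* without WT 1, 2 or 4 or Homo 2, 3, 5 or 6. Positive minus negative median was -0.13. It was 0.008 with a mean FPKM of at least 5 and 0.09 within the libraries with more genes above 0, below 0 otherwise, and it has no test. With few mice per set, 2 WT in one and 2 Homo in the other, within-set values rest on few libraries, and without counts the depth limit of low genes such as *Sesn2* is unknown.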
